A study of Mus musculus with 80 samples.

Results

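RXR binding was examined in livers of mice lacking hepatocellular PPARγ that were given a high-fat diet (HFD) or the same diet with pioglitazone (HFD-Pio), a thiazolidinedione drug that activates PPARγ. The material was chosen by sample title and consisted of 10 ChIP-Seq libraries, 5 of KO HFD and 5 of KO HFD-Pio livers, out of 80 samples in the series, of which 40 are ChIP libraries with peak files and 40 are inputs. All 10 livers came from male C57BL6/J mice with the PPARγ knockout genotype, aged 5 months, that had been on their diet for 12 weeks, so that genotype, strain, sex and HFD were common to both groups and pioglitazone was the labelled difference. According to the study's methods, the knockout was made by crossing mice with a loxP-flanked Pparg gene to mice in which the albumin promoter drives Cre, so that the gene is removed in hepatocytes and not in the other cells of the liver. The antibody entry in the labels of these 10 ChIP libraries reads as not applicable, although their titles name RXR and the methods describe an antibody against RXRα, RXRβ and RXRγ. They were taken as RXR ChIP, and each value below rests on that. The methods describe the replicates as separate animals, so p-values measure the spread between livers.

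RXR is the obligate partner of several nuclear receptors, among them PPARγ, PPARα, the liver X receptors and the farnesoid X receptor. PPARγ binds DNA as a heterodimer with RXR at direct repeats of the hexamer AGGTCA separated by a single base (DR1), and in fatty liver it drives genes of lipid uptake and lipid droplet formation such as Cd36, Cidec and Plin4. The comparison asks whether pioglitazone changed RXR-bound sites on HFD when hepatocytes had no PPARγ, with RXR left free to pair with its other partners.

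A site is a merged stretch of overlapping peaks of the 10 libraries on mm10. Its strength is the fold enrichment of ChIP tags over the local input background at the strongest summit, and a site is called exonic when that summit lies in an annotated exon. A few of the strongest sites outside exons are shown first, because the largest differences between the groups fell among them. Each line gives 101 bases around the summit, and the capitals mark a run of a repeated 5-base unit.
Arid1b-nearest site, intergenic, chr17:4626305-4626405, plus strand: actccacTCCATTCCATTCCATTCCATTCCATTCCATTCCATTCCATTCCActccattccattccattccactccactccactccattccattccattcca
Copg2 intron, chr6:30804893-30804993, plus strand: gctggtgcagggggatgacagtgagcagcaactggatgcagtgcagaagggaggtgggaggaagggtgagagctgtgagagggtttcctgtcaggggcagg
Sulf1-nearest site, intergenic, chr1:12644758-12644858, plus strand: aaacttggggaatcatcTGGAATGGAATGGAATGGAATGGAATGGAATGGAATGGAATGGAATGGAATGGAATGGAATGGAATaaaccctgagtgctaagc
5730522E02Rik-nearest site, intergenic, chr11:25100088-25100188, plus strand: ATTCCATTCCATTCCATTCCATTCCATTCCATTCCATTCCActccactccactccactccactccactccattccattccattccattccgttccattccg

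Exonic sites made up most of the rest, and 3 that stood out in the comparison of the groups are shown by 60 bases across the exon edge inside the site, with the exon in capitals.
Sbk1 coding exon, right edge, chr7:126290060-126290119, plus strand: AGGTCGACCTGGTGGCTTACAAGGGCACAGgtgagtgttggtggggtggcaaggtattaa
Klc1 coding exon, left edge, chr12:111789292-111789351, plus strand: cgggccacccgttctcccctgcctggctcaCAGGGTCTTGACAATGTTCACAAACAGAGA
Sptbn1 coding exon, right edge, chr11:30142393-30142452, plus strand: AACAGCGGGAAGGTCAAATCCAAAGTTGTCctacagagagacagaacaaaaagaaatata

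Depth was low in all 10 libraries. After duplicates were removed, the HFD libraries kept 0.651 to 0.924 M tags (M, mega) and the HFD-Pio libraries 0.628 to 0.879 M (exact two-sided permutation p = 0.254), and 52 to 71% of tags had been duplicates. The matched inputs were deeper in the HFD group, with 4.30 to 6.55 M kept tags against 2.17 to 5.00 M in the HFD-Pio group (exact permutation p = 0.0476), and the part of this difference in the results was not tested. Between 10.1 and 63.2% of a library's peaks had a pileup of 3 tags or fewer at the summit. HFD replicate 5 had the fewest peaks and HFD-Pio replicate 1 the lowest exonic share, and results that turn on either are given without it.

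The number of RXR peaks did not differ with pioglitazone by more than the spread between livers. The HFD livers 1 to 5 had 23779, 21071, 28922, 19848 and 8311 peaks, and the HFD-Pio livers 1 to 5 had 24019, 22355, 25016, 21632 and 19472. HFD replicate 5 stood well below the other 9 livers, and the groups overlapped. The mean of log2 peak number was 0.25 higher with pioglitazone (exact two-sided permutation p = 0.635, adjusted p = 0.794 over 5 measures), and without HFD replicate 5 it was lower, at -0.0471. The exonic share of peaks, those with a summit in an exon, was 85.1, 86.3, 81.0, 81.4 and 91.5% in the HFD livers and 67.8, 79.4, 85.8, 85.6 and 87.4% in the HFD-Pio livers. Exons therefore held the majority of peaks in each liver, and HFD-Pio replicate 1 was the lowest of the 10. Mean shares were 85.1 ± 4.25% and 81.2 ± 8.09% (SD, n = 5), a difference of -3.83 percentage points (exact permutation p = 0.437, adjusted p = 0.794) that shrank to -0.480 points without HFD-Pio replicate 1.

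Median peak strength overlapped between the groups in exons and outside them. Median fold enrichment of exonic peaks was 4.62, 4.12, 4.27, 4.31 and 5.54 in the HFD livers and 3.76, 4.198, 3.81, 4.41 and 4.37 in the HFD-Pio livers, a log2 difference of -0.15 (exact permutation p = 0.143, adjusted p = 0.714). The difference in median fold enrichment of exonic peaks was -0.0776 without HFD replicate 5 and -0.0358 when weaker peaks, with a −log10 q under 5, were left out. Outside exons the medians lay between 3.74 and 3.84 in HFD replicates 1 to 4, at 4.63 in HFD replicate 5 and between 3.73 and 3.81 in the HFD-Pio livers (log2 difference -0.057, exact permutation p = 0.563, adjusted p = 0.794). With 5 livers per group the exact test cannot give a p below 0.00794.

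**Figure D1:**
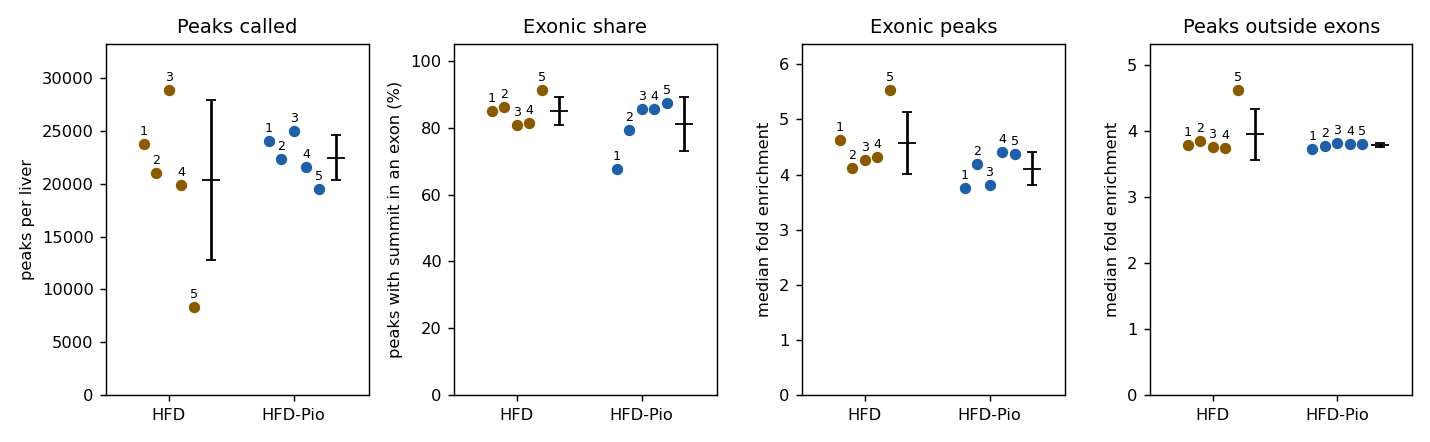
Peaks per liver, percentage of peaks with an exonic summit, and median fold enrichment of exonic peaks and of peaks outside exons (panels left to right), for 5 HFD and 5 HFD-Pio livers of PPARγ KO mice. Points are livers numbered by replicate, and bars are the mean and SD (n = 5). HFD replicate 5 has 8311 peaks against 19472 to 28922 in the other livers, and HFD-Pio replicate 1 has an exonic share of 67.8%.

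Peaks of the 10 livers merged into 76567 sites. Of these, 45781 (59.8%) were called in a single liver and 2714 (3.55%) in all 10. The shared sites lay almost wholly in annotated exons: 2600 (95.8%) had their strongest summit in an exon and 114 outside exons. By position, 1368 (50.4%) were in coding exons, 980 (36.1%) in 3′ UTRs, 50 in 5′ UTRs and 150 in pseudogene exons, and 71 were in introns of coding genes. The 2600 exonic sites fell in 1516 genes, 1014 of them with 1 such site. Sites in 9 of the 10 livers numbered 1369 and had a median fold enrichment of 5.19, against 6.87 for those in all 10.

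In shorter coding exons, sites were longer than the exon. Among the 824 sites with a summit in a coding exon shorter than 600 bp, the median exon was 201 bp long, the median site was 442 bp long, and the site reached a median of 107 bp past the left edge and 108 bp past the right edge. Both edges were passed in 703 of them (85.3%), as in the Sbk1 and Klc1 sequences above. The fragment length estimated by the peak caller was 119 to 168 bp.

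The strongest of these sites lay in tubulin and actin genes, which encode the cytoskeleton. At Tubb5 (β-tubulin, chr17:35833931-35836394) fold enrichment was 51.7, 60.5, 63.2, 63.6 and 44.8 in the HFD livers and 37.7, 72.4, 46.9, 51.5 and 55.2 in the HFD-Pio livers. The HFD-Pio livers held both the lowest and the highest value, and the log2 difference was -0.081 ± 0.160 (SE, limma adjusted p = 0.993). At Actb (β-actin, chr5:142903086-142904900) the values were 57.9, 44.8, 49.6, 50.1 and 40.1 in the HFD livers and 40.2, 46.0, 64.8, 61.3 and 50.5 in the HFD-Pio livers. Again the groups overlapped over most of their range (log2 difference 0.15 ± 0.143, SE, limma adjusted p = 0.993). Tuba1a, the neuronal tubulin Tubb3 and Tubb2b came next, with means over the 10 livers of 47.9, 45.5 and 43.5 and log2 differences of 0.097, -0.023 and 0.22.

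Pioglitazone changed fold enrichment at 0 of the 2714 sites called in all 10 livers (0%, limma with an adjusted p below 0.05 and at least 2-fold), and at 0 when no minimum fold was asked for. The smallest adjusted p was 0.0564. At an unadjusted p below 0.05 there were 150 sites (5.53%), 54 higher and 96 lower with pioglitazone. Exonic sites contributed 139 of 2600 (53 higher, 86 lower) and sites outside exons 11 of 114 (1 higher, 10 lower). The median log2 difference was -0.022 over exonic sites and -0.079 over sites outside exons. Differences of 2-fold or more in either direction occurred at 3 sites, and 2672 (98.5%) differed by less than 1.5-fold.

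The precision of the comparison at these 2714 sites can be read from the intervals of the differences. A site that fell below the caller's threshold in any liver was not among them. Larger changes may therefore have been left out, and the intervals do not give the precision for RXR sites in general. For 2647 sites (97.5%) the 95% interval lay wholly within 2-fold in either direction, that is for 2546 exonic sites (97.9%) and 101 sites outside exons (88.6%). At the median site the limits of the interval lay 0.42 from the difference on the log2 scale. The values of the 5 HFD and the 5 HFD-Pio livers did not overlap at 25 sites (0.921%), 7 higher and 18 lower with pioglitazone, and 24 of these were exonic.

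**Figure D2:**
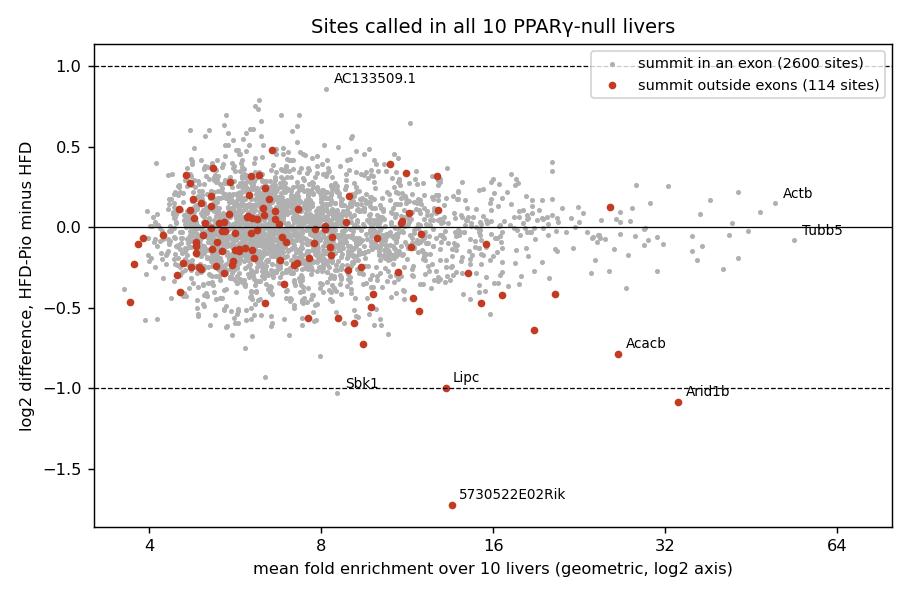
Log2 difference in fold enrichment between HFD-Pio and HFD livers against the mean fold enrichment over 10 livers (geometric mean, log2 axis) for 2714 sites called in all 10 livers. Grey points are 2600 exonic sites, red points 114 sites outside exons, and dashed lines mark 2-fold. Most points lie near 0, Actb and Tubb5 are the strongest, and Sbk1 and the Arid1b-nearest and 5730522E02Rik-nearest sites lie below the lower dashed line, with 0 sites passing the adjusted threshold.

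Of the exonic sites lower with pioglitazone, the coding exon of Sbk1, which encodes a serine/threonine kinase, had the smallest p. Fold enrichment at this site (chr7:126289790-126290176) was 11.6, 12.4, 18.4, 8.34 and 13.3 in the HFD livers and 3.85, 4.66, 6.43, 7.89 and 7.77 in the HFD-Pio livers. Each HFD liver was above each HFD-Pio liver. The log2 difference was -1.03 ± 0.211 (SE, 95% interval -1.46 to -0.595) with a limma adjusted p of 0.0564, which did not pass the threshold. When peaks were joined by summits within 100 bp instead of by overlap, the difference of -1.01 had a limma adjusted p of 0.0446. In the 17 alternatives on the same sites the adjusted p was never below 0.05. With pileup scaled to the kept tags and without centring on each liver's median, the difference shrank to -0.58 (limma adjusted p = 0.998).

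The other exonic sites lower with pioglitazone by this ranking included a pair of kinesin genes, whose products carry cargo along microtubules. At the kinesin light chain gene Klc1 (chr12:111789240-111789595) the HFD livers had 12.2, 11.5, 11.9, 9.96 and 8.28 and the HFD-Pio livers 4.53, 5.88, 7.99, 6.42 and 5.44. The groups did not overlap (log2 difference -0.80 ± 0.187, SE, limma adjusted p = 0.135). The neuronal kinesin Kif5c and the pseudogene Gm11996 had log2 differences of -0.67 and -0.93, with limma adjusted p-values of 0.667 and 0.0970, and overlapping groups.

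Exonic sites higher with pioglitazone were led, by p, by the pseudogene AC133509.1 (log2 difference 0.86 ± 0.205, SE, limma adjusted p = 0.135, groups overlapping). At Sptbn1, which encodes a spectrin of the membrane skeleton, HFD livers had 5.18 to 6.57 and HFD-Pio livers 6.57 to 11.4, with HFD replicate 3 and HFD-Pio replicate 1 almost equal at the boundary (limma adjusted p = 0.252). Chd3, a helicase of chromatin remodelling complexes, and Neurl4 had log2 differences of 0.79 and 0.69 (limma adjusted p = 0.228 and 0.421), the former with overlapping groups and the latter without overlap.

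The largest differences were found outside exons. The 5730522E02Rik-nearest site (chr11:25099965-25100329), 502625 bp from the nearest coding gene, had 17.97, 53.8, 23.5, 28.97 and 14.8 in the HFD livers and 12.2, 15.1, 3.80, 8.68 and 3.50 in the HFD-Pio livers. HFD replicate 2 was by far the highest, and the groups overlapped only in that HFD replicate 5 was below HFD-Pio replicate 2. The log2 difference of -1.72 ± 0.348 (SE, 95% interval -2.44 to -1.01) was the largest of all 2714, with a limma adjusted p of 0.0564. This call depended on the treatment of the data: the limma adjusted p was below 0.05 in 7 of 17 alternatives on the same sites and ranged from 0.000528 to 0.253. The 7 include a fit with the replicate number as a block, although these numbers did not pair the livers. They also include a fit without both HFD replicate 5 and HFD-Pio replicate 1, chosen after seeing the data. The limma adjusted p was 0.000356 with peaks joined by summits, 0.00614 without HFD-Pio replicate 1 and 0.0111 without HFD-Pio replicate 2. The log2 difference stayed between -1.99 and -1.41 when each liver in turn was left out.

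The site with the highest fold enrichment outside exons was the Arid1b-nearest one (chr17:4626155-4626711), 367977 bp from that gene. It had 30.5, 120, 47.3, 65.6 and 27.3 in the HFD livers and 33.0, 43.7, 16.3, 29.3 and 9.05 in the HFD-Pio livers. HFD replicate 2 was again highest and HFD-Pio replicate 5 lowest, and the groups overlapped (log2 difference -1.08 ± 0.347, SE, limma adjusted p = 0.667). With pileup scaled to the kept tags in place of fold enrichment, and without centring on each liver's median, this difference was -1.04. Its limma adjusted p of 0.0297 was the only one of 17 alternatives below 0.05. The adjusted p reached 0.909 in the others, and the difference ranged from -1.45 to -0.73.

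Sites in introns of Acacb and Lipc also had large differences. These 2 and 3 other sites of the 53 without exon overlap (9.43%) shared a repeated 12-base word, not printed here. The word was found after the sequences had been seen. Within 100 bp of the summit it lay at 2 of the 2600 exonic sites. Of the 14282 sites found in 3 or more livers of a group, 44 had it (0.308%). All 5 sites without exon overlap that held it were lower with pioglitazone (median log2 difference -0.52, no test), as were 39 of all 53. A word that recurs in the genome limits how surely reads can be assigned to these introns or genes, and the species of these reads was not tested. Acacb encodes the mitochondrial acetyl-CoA carboxylase, whose product malonyl-CoA restrains fatty acid oxidation, and its intronic site (chr5:114172978-114173295) had 29.6, 40.6, 45.1, 39.0 and 26.0 in the HFD livers and 33.8, 17.4, 22.2, 14.97 and 15.9 in the HFD-Pio livers. All HFD-Pio livers but replicate 1 were below the lowest HFD liver. The log2 difference was -0.79 ± 0.212 (SE, limma adjusted p = 0.252), and -0.99 without HFD-Pio replicate 1 (limma adjusted p = 0.00922). It was only -0.48 with pileup scaled to the kept tags and without centring (limma adjusted p = 0.998). The adjusted p was below 0.05 in 2 of 17 alternatives. Both left out HFD-Pio replicate 1, and the one that also left out HFD replicate 5 was chosen after seeing the data. Lipc encodes hepatic lipase. Its intronic site (chr9:70806058-70806359) had 15.7, 39.8, 20.7, 15.5 and 12.3 in the HFD livers and 15.7, 16.9, 6.67, 8.55 and 4.37 in the HFD-Pio livers (log2 difference -0.997 ± 0.314, SE, limma adjusted p = 0.667, groups overlapping). No exonic peak was called in Acacb in any of the 10 livers.

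Other strong sites outside exons moved less. The Copg2 intron had 20.7 to 29.4 in HFD and 20.9 to 35.9 in HFD-Pio livers (log2 difference 0.13, limma adjusted p = 0.993), and the Plxdc2 intron had 17.2 to 37.1 and 11.7 to 31.0 (log2 difference -0.42, limma adjusted p = 0.893). At the Sulf1-nearest site, 47469 bp from that gene, the ranges were 13.4 to 47.9 and 7.87 to 23.5 (log2 difference -0.64, limma adjusted p = 0.877). Without HFD replicate 2 the differences were -0.36 at Sulf1 and -0.23 at Plxdc2. A site in an intron of Hnrnpa2b1, which encodes an RNA-binding protein, was the last of the 5 lowest by p (log2 difference -0.56, limma adjusted p = 0.688). The 5 sites outside exons most higher with pioglitazone by p were at Pabpn1, Kif1a, Cct8, Cpe and Macf1, with log2 differences from 0.32 to 0.48 and limma adjusted p-values from 0.877 to 0.966. At Cpe, HFD-Pio replicate 1 had 4.69 and the other HFD-Pio livers 7.47 to 7.63.

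**Figure D3:**
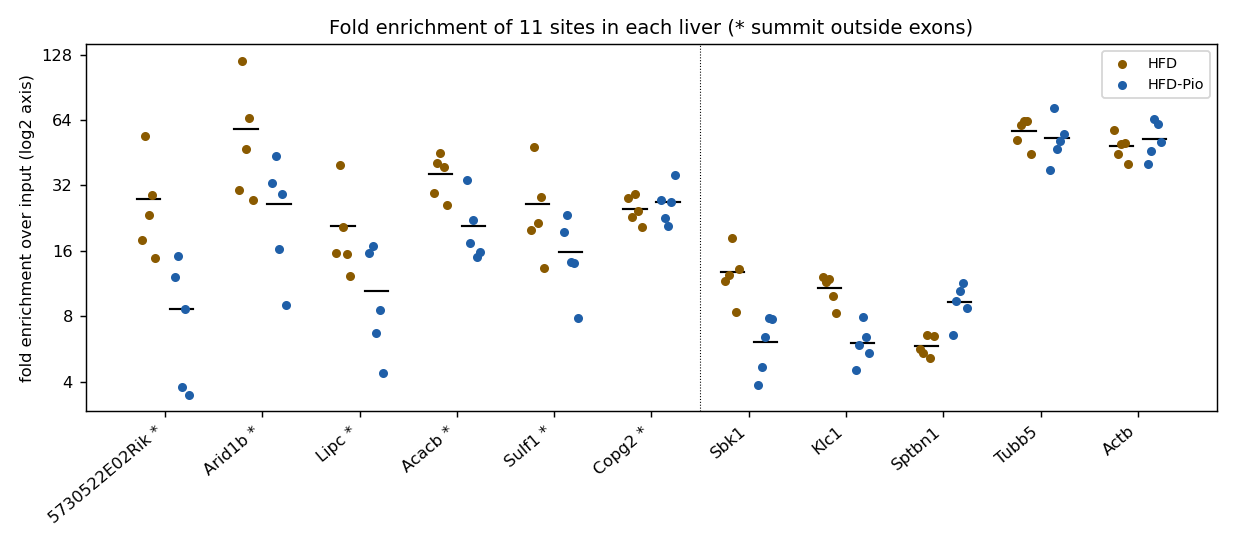
Fold enrichment (log2 axis) of 11 sites in each of 5 HFD and 5 HFD-Pio livers, with lines at the arithmetic means. The 6 sites left of the dotted line have summits outside exons and the 5 right of it are exonic. Tubb5 and Actb overlap between the groups, Sbk1 and Klc1 are lower in each HFD-Pio liver than in each HFD liver, and the 5730522E02Rik-nearest site spans 3.50 to 53.8.

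The sequences of the sites outside exons had features in common that were not used to choose them. Of the 114, 53 overlapped no exon at all. A run of at least 30 bases of a repeated 5-base unit lay within 100 bp of the summit at 6 of these 53 sites (11.3%), at 1 of the 2600 exonic sites and at 36 of the 14282 sites found in 3 or more livers of a group (0.252%). The Arid1b-nearest, Sulf1-nearest and 5730522E02Rik-nearest sequences above are 3 of the 6, with runs of 44, 66 and 41 bases within the windows shown. The runs were searched for after the sequences had been seen, and the counts are a description.

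The values at these repeat sites are given for the same reason without a test. All 6 sites with a 5-base run were lower with pioglitazone, with a median log2 difference of -0.68, and of all 53 sites without exon overlap 14 were higher and 39 lower, with a median of -0.16. Median fold enrichment over the 6 run sites was 17.7, 44.7, 18.2, 24.9 and 12.9 in the HFD livers and 19.2, 19.3, 10, 10.1 and 6.56 in the HFD-Pio livers. HFD replicate 2 was the highest HFD liver at 6 of 6 of them and HFD-Pio replicate 5 the lowest of the 10 livers at 5 of 6. Each of the 6 was also called in at least 1 WT HFD liver, as were 12 of the 53. The 5-base unit was not the same at all 6 sites. The runs printed above for the Arid1b-nearest, Sulf1-nearest and 5730522E02Rik-nearest sites have the same unit, read on either strand. Runs of that unit are also known from human satellite DNA. Repeated sequence limits how surely reads can be assigned to a locus or a species. Fold enrichment at the 6 run sites may therefore not measure binding at the places named. The species of the reads, and the part that sequence, single livers or input depth had in these differences, was not tested.

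Some sites without an exon resembled an annotated transcript of another locus. The matched transcripts included those of pseudogenes and non-coding genes, such as Rpl9-ps7 and Rian. Whether a match crossed a splice junction was not tested. An alignment of at least 90% identity over more than 50% of the site was found for 11 of the 53 sites (20.8%) and for 56 of 375 sites without exon overlap among the others found in 3 or more livers of a group (14.9%). A site on chromosome 6 with a mean fold enrichment of 11.7 matched the first coding bases of Tubb3, the neuronal tubulin whose own exon was among the 5 strongest sites. The stretch of 80 bases is shown beside the transcript, with the difference in capitals.
Site, chr6:136398477-136398556, plus strand: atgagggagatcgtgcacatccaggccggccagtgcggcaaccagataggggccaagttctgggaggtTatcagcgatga
Tubb3 transcript: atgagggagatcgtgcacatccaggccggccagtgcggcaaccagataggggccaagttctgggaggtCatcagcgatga

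The DR1 element of PPARγ and RXR was rare at the shared sites. It was searched as AGGTCANAGGTCA on both strands within 100 bp of the summit, with up to 2 mismatches. It was found at 73 of 2600 exonic sites (2.81%), at 5 of 114 sites outside exons (4.39%) and at 0 of the 53 without exon overlap, against 376 of these 14282 sites (2.63%). The hexamer AGGTCA, which is part of DR1, was found at 13.2%, 8.77% and 7.55% of these 3 sets, beside 12.98% of the 14282. A match is a description of the letters and not of binding. Among peaks outside exons, the DR1 share was 3.16, 1.87, 3.23, 2.74 and 2.96% in the HFD livers and 2.77, 2.83, 3.21, 2.38 and 2.58% in the HFD-Pio livers, with HFD replicate 2 lowest. Means were 2.79 ± 0.550% and 2.75 ± 0.311% (SD, n = 5, exact permutation p = 0.905, adjusted p = 0.905). The 5 matches at sites outside exons called in all 10 livers are printed with the hexamer positions in capitals, each with 2 mismatches. In 3 of them, Kif1a, L1cam and Adgrl1, the match itself lay in an exon although the summit did not.
Kif1a intron, chr1:93064270-93064282, plus strand: AGGGCAtTGGTCA
Plk2 intron, chr13:110397892-110397904, minus strand: AGGTCAaAGAGCA
L1cam intron, chrX:73861302-73861314, minus strand: AGGTTAaAGGTTA
Adgrl1 intron, chr8:83923050-83923062, minus strand: AGGACAgGGGTCA
Glg1-nearest site, intergenic, chr8:111154101-111154113, plus strand: AGGCGAgAGGTCA
These 5 sites had mean fold enrichments of 4.94 to 5.65 and log2 differences from -0.25 to 0.17, each with a limma adjusted p of 0.993.

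Next, calls themselves were compared. Among the 14282 sites found in 3 or more livers of a group, 559 (3.91%) were gained, that is called in at least 3 HFD-Pio livers and 0 HFD livers, and 421 (2.95%) were lost, that is called in at least 3 HFD livers and 0 HFD-Pio livers. Only 10 of the gained sites and 4 of the lost sites were called in 5 livers against 0. Outside exons 67 of 1021 sites were gained (6.56%) and 68 were lost (6.66%). By Fisher's exact test of livers with and without a call there were 0 sites past the adjusted threshold (smallest p = 0.00794, 242 at an unadjusted p below 0.05, 166 higher and 76 lower). With 5 livers against 5 this p is the smallest the test can give, so the design could not pass the threshold after adjustment over 14282 sites, and the 0 says nothing about these sites. Just short of the rule, 2312 sites were called in 2 HFD-Pio livers and 0 HFD livers and 2084 in 2 HFD and 0 HFD-Pio livers.

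Gained and lost sites were weak in each liver that had them. Their median pileup was 3 tags in 9 of the 10 livers and 4 in HFD replicate 5, and median fold enrichment was 3.82 over gained and 4.05 over lost sites. HFD replicate 5 had 68 of the 421 lost sites (16.2%), whereas the other HFD livers had 67.7 to 86.2%. The counts moved when a liver was left out, which the rule of 3 calls against 0 brings about by construction. Fewer livers to reach 3 calls lower a count, and fewer livers to stay at 0 raise it. Of the gained sites 447 had calls in just 3 HFD-Pio livers, and of the lost sites 364 in just 3 HFD livers. The ranges below therefore do not show that a count rested on a single liver. Leaving out any 1 HFD-Pio liver gave 266 to 330 gained sites, and leaving out HFD replicate 1 or 3 gave 902 or 1048. Leaving out HFD replicate 1, 2, 3 or 4 gave 117 to 184 lost sites, and leaving out HFD-Pio replicate 3 gave 690. Outside exons, gained sites numbered 24 to 42 without any 1 HFD-Pio liver and 103 without HFD replicate 3, and lost sites 19 to 30 without HFD replicate 1, 2, 3 or 4. With all lists shortened to 8311 peaks, the length of the shortest, 213 sites were gained and 232 lost.

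**Figure D4:**
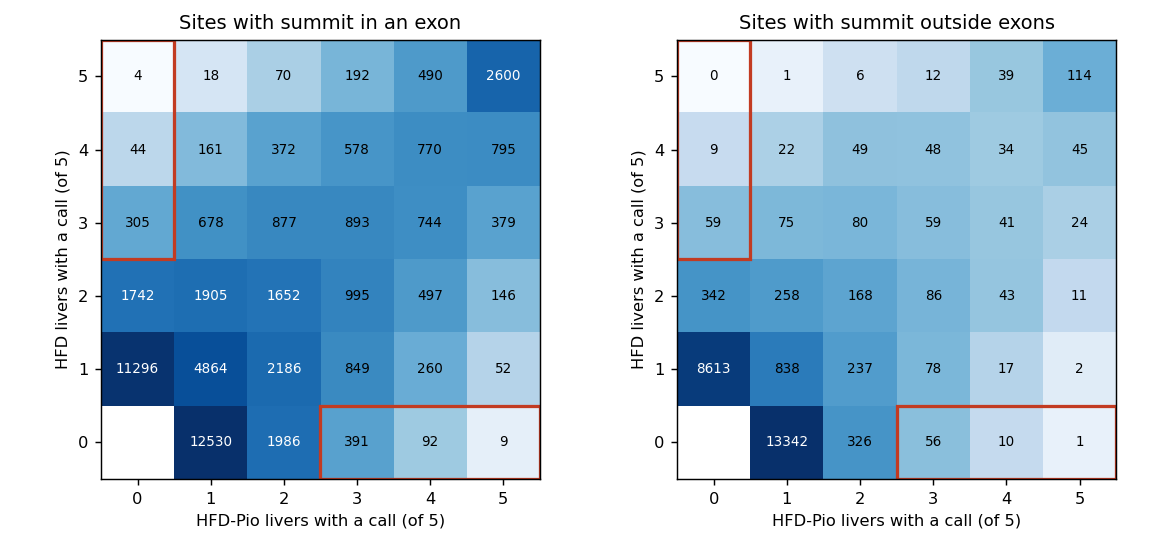
Number of sites by HFD livers with a call (vertical, of 5) and HFD-Pio livers with a call (horizontal, of 5), for exonic sites on the left and sites outside exons on the right, with darker shades for larger numbers on a log10 scale. Red outlines mark gained sites (lower right) and lost sites (upper left). Of exonic sites 2600 were called in all 10 livers, 9 in 5 HFD-Pio and 0 HFD livers, and 4 in 5 HFD and 0 HFD-Pio livers.

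Exonic sites called in 5 HFD-Pio livers and 0 HFD livers included those of Phldb1, the receptor tyrosine phosphatase gene Ptprz1, the mitochondrial fusion gene Mfn2, Fem1b and Gm2a. At Mfn2 (3′ UTR, chr4:147873613-147874181) the HFD-Pio livers had 4.65, 4.72, 3.81, 3.71 and 5.70. That site was also called in 4 of 5 KO Control livers and in all 5 KO Pio livers. The 4 sites called in 5 HFD and 0 HFD-Pio livers were at Akap9, Pdcd4, Btbd2 and Cap1. At Akap9, which encodes a kinase-anchoring protein of the centrosome (chr5:4050236-4050506), the HFD livers had 2.84, 3.84, 5.63, 5.58 and 6.48. It was called in 4 of 5 KO Control and 4 of 5 KO Pio livers. Timm13, a gene of mitochondrial protein import, was the strongest of the next class, with 4.52 to 8.14 in 4 HFD livers.

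Outside exons the intron of Zfp512b alone was called in all 5 HFD-Pio and 0 HFD livers, with 3.71 to 5.70. Introns of the cyclin-dependent kinase gene Cdk16, the glutamate receptor gene Gria1, the importin gene Ipo7 and the transporter gene Slc6a17 were called in 4 HFD-Pio livers, with 3.50 to 4.77. Of the 5 sites described here that were called in 4 HFD and 0 HFD-Pio livers, 4 had their highest value in HFD replicate 2. The Cenpf-nearest site had 4.73, 12.5, 3.75 and 6.90 in HFD replicates 1 to 4, and the Ctsm-nearest, 4931408C20Rik-nearest and Lpar3 sites also had their highest value in HFD replicate 2, at 9.04, 9.94 and 8.64. A Rasa1 intron, in a gene for a Ras inhibitor, was called in HFD replicates 1, 3, 4 and 5 with 4.67 to 7.01. Over all lost sites outside exons, median fold enrichment was 5.76 in HFD replicate 2, 5.55 in HFD replicate 5 (6 sites) and 3.74 to 3.78 in HFD replicates 1, 3 and 4.

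Some genes had both gained and lost exonic sites. Gained sites fell in exons of 460 genes and lost sites in exons of 337, and 39 genes had both, which is 8.48% of the former and 11.6% of the latter. An exonic site called in all 10 livers was also present in 118 of the genes with a gained site (25.7%) and in 87 of those with a lost site (25.8%). These 2 shares were nearly equal. Such shares were not computed over all genes with an exonic site. The overlaps, the 39 genes with both included, therefore have no background beside them. Whether they are more or less than usual cannot be told.

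The exemplar PPARγ target genes were nearly free of peaks in both groups. Of the 7 exemplar genes that the study tested by RT-qPCR, Cd36, Cfd, Cidec, Fabp4 and Plin4 had no peak anywhere in the gene body in any of the 10 livers, and the acyltransferase gene Mogat1 had 1 peak in 1 liver, outside its exons. Caveolin 1 (Cav1) had an exonic peak in HFD replicate 1 (3.78) and in HFD-Pio replicates 2, 4 and 5 (4.72, 2.85 and 3.80). Pparg and Ppara had none. Among 16 lipid droplet and steatosis genes, a median of 5 had an exonic peak per liver in each group. In at least 1 liver 9 of the 16 had one, and 0 had a site called in all 10. Fatty acid oxidation genes had 7 of 22 and 0, and targets of the liver X and farnesoid X receptors 4 of 15 and 0. The share over all annotated genes was not computed for these lists or those below. Their counts therefore describe the members and have no background beside them.

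Receptor genes had few sites called in all 10 livers. Thra, which encodes thyroid hormone receptor α, an RXR partner, had exonic peaks in all 10 livers, and its strongest shared site (3′ UTR, chr11:98764103-98768985) had 18.3, 18.1, 19.8, 24.3 and 12.8 in the HFD livers and 13.6, 29.4, 24.7, 18.6 and 31.7 in the HFD-Pio livers. These ranges overlapped (log2 difference 0.35 ± 0.205, SE, limma adjusted p = 0.928). Of 17 RXR and partner receptor genes, Thra alone had a site called in all 10. Rxra had an exonic peak in HFD-Pio replicate 3 only (3.81), and Rxrb in 3 HFD livers (3.51 to 7.495) and 2 HFD-Pio livers (3.68 and 4.41). The corepressor gene Ncor1 was called in 4 HFD and 5 HFD-Pio livers, while the orphan receptor gene Nr2f1 had the 1 site called in all 10 livers among 17 co-regulators and related receptors (log2 difference 0.23, limma adjusted p = 0.993).

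Several genes of central metabolism had sites called in all 10 livers. Of 21 genes of cholesterol and fatty acid synthesis, 19 had an exonic peak and 7 a site called in all 10 livers, among them the sterol synthesis gene Hmgcs1, fatty acid synthase (Fasn) and Srebf2. Fasn (chr11:120807037-120809734) had 8.46 to 14.1 in HFD and 8 to 13.2 in HFD-Pio livers. Of 40 nuclear oxidative phosphorylation genes 39 had a peak and 11 a shared site, led by Atp5b, with 11.2 to 19.8 and 11.6 to 17.7. The succinate dehydrogenase subunit Sdhd had 3.78, 2.88, 4.66, 4.67 and 4.63 in the HFD livers and 3.76, 5.66, 5.72, 7.60 and 6.65 in the HFD-Pio livers as its strongest exonic peaks. HFD-Pio replicate 1 lay among the HFD livers and the other 4 HFD-Pio livers above them (log2 difference 0.60, limma adjusted p = 0.688).

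The mitochondrial pyruvate carrier subunits, which take up pyruvate and also bind thiazolidinediones, had few peaks. Mpc2 had an exonic peak in HFD replicates 3 and 4 (4.69 and 3.63) and in 0 HFD-Pio livers, and Mpc1 had none in an exon. Of 17 genes for pyruvate use and mitochondrial carriers, 16 had a peak and 7 a shared site, with a median log2 difference of -0.092 (1 higher, 6 lower). Ribosomal protein genes had 12 of 30 shared (median 0.0063), glycolytic enzymes 4 of 18 (median -0.0064) and chaperones 12 of 19 (median 0.052), beside -0.022 over all exonic sites. Among the chaperones Hsp90ab1 was the strongest, with 20.8 to 40.6 in HFD and 26.7 to 35.2 in HFD-Pio livers. In the lists of synthesis, oxidative phosphorylation, carrier, ribosomal, glycolytic and chaperone genes 0 of 53 members with a shared site passed the adjusted threshold by limma, and 3 (5.66%) had an unadjusted p below 0.05, close to the 5.35% of all exonic sites, namely Sdhd, Cox4i1 (log2 difference 0.42) and the ribosomal stalk gene Rplp0 (-0.54).

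Genes known for high activity in hepatocytes were mostly without exonic peaks. Of 26 genes for secreted liver proteins, 23 had no exonic peak in any of the 10 livers, albumin (Alb) and Apoa1 among them, while transthyretin (Ttr) and Apoe had sites called in all 10 and Vtn was called in 6 livers. Ttr had 13.2 to 25.5 in HFD and 17.6 to 23.2 in HFD-Pio livers. Of 27 hepatocyte enzyme genes, such as Cps1, Pck1 and Cyp2e1, 0 had an exonic peak in any liver. Of 36 synaptic and neuronal genes, 35 had an exonic peak in at least 1 liver and 24 had a site called in all 10. Per HFD liver 30 to 35 of the 36 were called, and per HFD-Pio liver 33 to 35. No share over all annotated genes was computed, so these counts describe the list members only.

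The neuronal list had overlapping levels in the groups. Its summed fold enrichment was 355 to 518 in the HFD livers and 350 to 461 in the HFD-Pio livers, and the 24 shared sites had a median log2 difference of -0.0088, with 10 higher, 14 lower and 0 at an unadjusted p below 0.05 by limma. Tubb3, the microtubule-associated protein gene Mapt and Rtn1 were the strongest. Mapt (3′ UTR, chr11:104327845-104332084) had 34.9, 26.0, 29.6, 35.4 and 25.4 in the HFD livers and 20.4, 29.3, 36.0, 34.04 and 27.98 in the HFD-Pio livers, and the groups overlapped. Of 13 myelin and astrocyte genes, Glul and Slc1a3 had shared sites and Mbp, Mag, Mog, Mobp, Gfap, Aqp4 and S100b had no exonic peak. The labelled tissue is liver, and the source of these exonic peaks was not tested.

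Markers of other cells varied by list. An exonic peak in at least 1 liver was found for 5 of 16 Kupffer cell, leukocyte and blood genes, 12 of 17 endothelial, stellate and duct markers, 8 of 13 muscle genes, 12 of 15 extracellular matrix genes, 1 of 8 adipocyte markers and 1 of 15 intestinal genes. Sites called in all 10 livers were fewer. Of 16 Kupffer cell, leukocyte and blood genes only the β-globin gene Hbb-bs had a shared site, and Adgre1, Clec4f and Cd68 had no exonic peak. Endothelial, stellate and duct markers had 2 of 17 (Acta2 and Reln), adipocyte markers 0 of 8, intestinal genes 0 of 15, muscle genes 2 of 13 (Acta1 and Tagln), extracellular matrix genes 5 of 15 (Sparc, Col4a1 and Fn1 the strongest) and actin and tubulin genes 7 of 10. In these lists 0 members had an unadjusted p below 0.05 by limma.

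**Figure D5:**
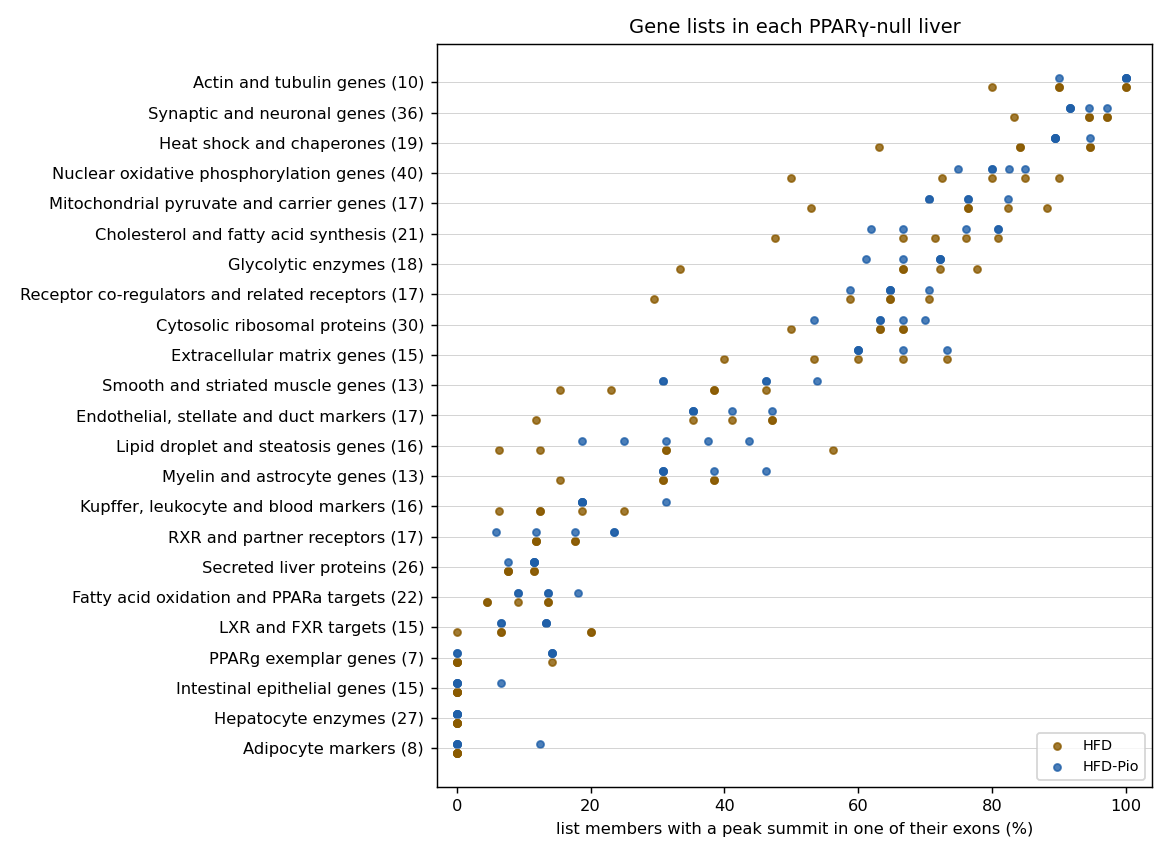
Percentage of the members of 23 gene lists (number of genes in parentheses) with an exonic peak in each liver, HFD livers in brown below and HFD-Pio livers in blue above each line. In each liver 30 to 35 of the 36 synaptic and neuronal genes have an exonic peak, and 0 of the 27 hepatocyte enzymes.

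The sites shared by the 10 livers were those of PPARγ KO livers on control diet as well. At least 3 of 5 KO Control livers had a call at 98.6% of the 2714 sites, and at least 3 of 5 KO Pio livers at 99.7%. The labels name an RXR antibody for KO Control. In WT HFD livers 9 of the 2714 sites (0.332%) were called in at least 3 of 5 livers and in WT HFD-Pio livers 429 (15.8%), but WT peaks were called at another threshold and depth, so that genotype cannot be told apart from these. Of the gained sites 11.8% were called in at least 3 KO Control livers and 24.3% in at least 3 KO Pio livers, and of the lost sites 17.1% and 24.0%. Such shares were not computed over all sites found in 3 or more livers of a group.

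The effect of pioglitazone on HFD was also set against its effect on control diet in KO livers, where the 2 effects share no samples. At the 1985 sites called in all 20 KO livers, 0 (0%) had a different effect on the diets by limma (smallest adjusted p = 0.830, 99 at an unadjusted p below 0.05), and for 1631 (82.2%) the 95% interval of the difference between the effects lay within 2-fold. Pioglitazone passed the adjusted threshold at 0 of these sites on HFD and at 0 on control diet by the same fit, with 100 and 122 at an unadjusted p below 0.05. The dynein heavy chain gene Dync1h1, encoding a microtubule motor, had the smallest p, with log2 differences of -0.30 on HFD and 0.78 on control diet (interaction -1.07 ± 0.273, SE, limma adjusted p = 0.830).

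At 4 sites outside exons with large differences on HFD, the difference on control diet was of the same sign in this fit. They were chosen after their values had been seen. At the 5730522E02Rik-nearest site the log2 differences were -1.67 on HFD and -1.30 on control diet (0.397, SE of each), and the difference between them was -0.37 ± 0.562 (SE, limma adjusted p = 0.972). At the Acacb intron they were -0.73 and -0.88 (0.241, SE of each), with 0.15 ± 0.341 between them (SE, limma adjusted p = 0.972). The Arid1b-nearest site had -1.03 and -1.45, and the Lipc intron -0.94 and -1.20. Adjusted p-values of these effects by limma were 0.148 to 0.875 on HFD and 0.308 on control diet. Other named sites outside exons were mixed in this fit. The Hnrnpa2b1 intron had -0.51 on HFD and 0.072 on control diet, Cct8 0.42 and -0.22, and Cpe 0.38 and -0.42. At the Sulf1-nearest, Plxdc2, Copg2 and Pabpn1 sites the sign was the same on both diets. A shared sign was therefore not general to named sites outside exons. The exonic pseudogene site of AC133509.1 had 0.91 on HFD and -0.052 on control diet (interaction 0.96 ± 0.310, SE, limma adjusted p = 0.963).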

How the data were processed

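RXR ChIP-Seq peaks of 5 KO HFD and 5 KO HFD-Pio livers were analysed, each called against its own input. Per the labels, reads were mapped with Novoalign to mm10, and per the file headers the authors called peaks with MACS 2.1.1.20160309 at a q cutoff of 0.05, keeping a single tag per position and scaling the larger dataset to the smaller. The deposited fold enrichment is the authors' ratio of ChIP pileup to local input background at the summit. The deposited pileup is a signal of extended tags at the summit, scaled as above. The deposited −log10 p and −log10 q values come from the same caller, and −log10 q was used here only as a filter. Tag numbers are those in the file headers. Because scaling and the local background depend on ChIP and input depth, low depth limits weak peaks to a few tags and a few possible ratios.

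Peaks with several summits were reduced to the strongest, on chromosomes 1 to 19, X and Y. Peaks of the 10 libraries overlapping by at least 1 bp were merged into sites, and summits were placed on GENCODE M21 exons (GRCm38, the same build). Log2 fold enrichment at sites called in all 10 livers was centred on each liver's median and compared with limma 3.58.1 (R 4.3.3, trended variance), with Benjamini-Hochberg adjustment over all sites. A change needed an adjusted p below 0.05 and at least 2-fold. Sites not called in a liver have no value there and were compared by calls only. Library measures were compared by exact two-sided permutation of 252 assignments, calls by Fisher's exact test, and the effects of pioglitazone on HFD and control diet by an interaction term over 20 KO libraries. Scripts used Python 3.11.15, scipy 1.17.1 and BLAST 2.17.0+ for transcript copies, and were tested on simulated data.

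Named sites were the 5 of highest fold enrichment and the 5 higher and 5 lower of smallest p, apart for exonic sites and sites outside exons, up to 5 gained and 5 lost sites of each kind, up to 3 shared members of each gene list, and receptor, carrier and exemplar genes. Exceptions are marked in the text, and Sdhd, Cox4i1, Rplp0, Dync1h1, Vtn, Ncor1 and the DR1 and transcript-copy sites were also chosen after their values were seen. The libraries, rule and gene lists were chosen with earlier results of these data known. The read-based differential test that the methods describe needs reads and was not run here. A few sites that the rule names, and some sequences, are not reported here.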

Additional observations from a re-analysis of the deposited data

Results flagged for a closer look

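In 154 groups of 5 livers tested for 1 value far from the other 4, 8 such values were found (5.19%), close to the 1 in 20 that chance gives. Among library measures, HFD-Pio replicate 1 kept 0.8787 M tags (M, mega) against 0.6277 to 0.6725 M in the other HFD-Pio libraries, and HFD replicate 5 had a median fold enrichment outside exons of 4.625 against 3.738 to 3.841.

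Among named sites, Fem1b had 3.498 in HFD-Pio replicate 5 against 4.693 to 4.766 in the others of its group. Gm2a had 6.61 in HFD-Pio replicate 3 against 3.358 to 3.79, and Cpe had 4.693 in HFD-Pio replicate 1 against 7.467 to 7.626. Atp5b had 11.58 in HFD-Pio replicate 2 against 16.12 to 17.66. Btbd2 had 5.738 in HFD replicate 5 against 3.384 to 3.861, and Reln had 7.508 in HFD replicate 3 against 4.625 to 4.801.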

How the results depend on the processing

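The number of sites with changed fold enrichment, 0 of 2714, became 1 with no centring or with sites called in at least 4 of 5 livers of each group, 2 with pileup scaled to kept tags, 2 with peaks joined by summits within 100 bp (1 exonic, Sbk1, and 1 outside exons), 0 to 1 with any 1 liver left out, and 2 without both HFD replicate 5 and HFD-Pio replicate 1, an alternative chosen after seeing the data. Apart from Sbk1 these were outside exons: the 5730522E02Rik-nearest site each time, joined by the Arid1b-nearest site with pileup and by the Acacb intron without both livers. Quantile scaling, a −log10 q of at least 5, no trend and a fit over 20 KO libraries gave 0. The alternative with pileup also left out the centring on each liver's median. The interaction gave 1 site with no centring (Dync1h1, -1.314, limma adjusted p = 0.0484).

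Replicate numbers did not pair the livers: same-numbered livers had correlations of -0.0306 to 0.0211, and only number 3 correlated best with its own. With the replicate number as a block, limma gave 1 changed site, outside exons. The sign-flip test of the paired library measures cannot go below 0.0625.

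Gained sites (559) fell to 112 at 4 or more livers against 0, 148 at a −log10 q of at least 5, 213 in lists of equal length and 355 without both livers, with 266 to 1048 when any 1 liver was left out. The number of lost sites (421) fell to 57, 147 and 232 in the first 3 of these and to 259 at 4 or more against at most 1, with 117 to 690. Outside exons, gained sites numbered 11, 30 (4 or more against at most 1), 5 and 10, then 21 when exon overlap decided, 43 without both livers, and 24 to 103 with any 1 left out. Lost sites outside exons numbered 9, 32, 20, 30 and 43 in the same order, and 19 to 95. The filters leave fewer peaks by construction, and with 1 liver left out the rule itself moves the counts.

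Library measures that did not pass a test changed sign: log2 peak number (-0.04709 to 0.4027 with 1 liver left out, negative without HFD replicate 5), exonic share of peaks (1.184 points at −log10 q of at least 5), log2 median fold enrichment of peaks outside exons (-0.0752 to 0.001656), and DR1 share of peaks outside exons (0.03357 points at that filter, 0.05724 with at most 1 mismatch, -0.269 to 0.07053 with 1 left out). The cause was not tested. Low depth limits weak peaks most.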

Other observations

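Sites lost or gained outside exons were also looked up in KO livers on control diet. Of these 68 sites, 28 (41.2%) were called in at least 3 of 5 KO Control livers and 8 (11.8%) in at least 3 of 5 KO Pio livers, whereas of the 67 gained outside exons 9 (13.4%) and 15 (22.4%) were. HFD replicate 5 had 6 of the 68. The share over all sites outside exons found in 3 or more livers of a group was not computed. No test was made, since the sites were chosen on calls with few tags.

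Of the 53 sites called in all 10 livers without any exon overlap, the 12 also called in at least 1 WT HFD liver were lower in all 12 cases, with a median log2 difference of -0.53, and HFD replicate 2 was the highest HFD liver at 11 of them. These 12 include the 6 sites with a 5-base run and the Acacb and Plxdc2 introns. The set was formed after values had been seen, and these are values without a test.

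Livers shared peaks to differing degrees. Between 2 HFD livers, 44.3 to 81.2% of the shorter list overlapped the longer one (median 54.3%), between 2 HFD-Pio livers 37.5 to 51.8% (median 46.4%), and between livers of different groups 38.9 to 77.3% (median 48.8%). Over the 2714 shared sites the correlation of log2 fold enrichment between livers was 0.682 to 0.759, a description across sites.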
